A study of Mus musculus with 5 samples.

Results

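Costimulatory ligands and Cd40 are a set of 7 genes for surface proteins that act between antigen-presenting cells and T cells: Cd86, Cd80, Icosl, Cd274, Pdcd1lg2, Cd83 and Cd40. They were taken as every array feature that the platform annotation assigns to 1 of these symbols, which gave 19 features for 7 genes out of 45018 features and 19087 named genes. All 7 genes passed the filter on low values, as did 18 of the 19 features. Cd40 had 10 features, Cd86, Cd80 and Icosl had 2 each, and Cd274, Pdcd1lg2 and Cd83 had 1 each.

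The 5 samples were cultured pro-B cells, early B-cell precursors, from livers of mouse embryos at 16.5 days post coitum. The 3 deleted samples (called deleted 4, 5 and 7 after their titles) were Ebf fl/fl, so that Cre can remove both alleles of Ebf1, a transcription factor of the B lineage. The 2 control samples (control 3 and 6) were Ebf+/fl, with 1 allele open to removal. All 5 had the same treatment: growth with interleukin-7 on OP-9 stromal cells, 24 hours of 4-hydroxy-tamoxifen at a labelled 2 mM to switch on an ER-Cre fusion protein, and 4 further days of culture. The labels name no promoter for the Cre. RNA was hybridised to 1-colour Agilent arrays. The comparison asks how expression differed once both Ebf1 alleles, and not 1, had been open to deletion.

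T cells need a signal beyond antigen, and the B7 family supplies it. The products of Cd80 and Cd86 bind CD28, which activates, and CTLA-4, which restrains. The product of Icosl binds ICOS, and those of Cd274 (PD-L1) and Pdcd1lg2 (PD-L2) bind the inhibitory receptor PD-1. CD40 is a receptor of the TNF receptor family through which T-cell help reaches B cells and dendritic cells. CD83 is an immunoglobulin-family surface protein of activated dendritic cells and B cells, and in mice it opposes the ubiquitin ligase MARCH1, which removes CD86 and MHC class II from the surface.

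In deleted cells 4 of the 7 genes were higher, Cd86 and Cd83 by far the most, 1 was lower, and 2 did not pass. Cd86 was 37.5-fold higher with 1 of the 2 controls below the limit of detection, Cd83 25.3-fold, Icosl 3.98-fold and Cd274 2.55-fold, whereas Cd80 fell by 1.40 on the log2 scale. Cd40 and Pdcd1lg2 had groups that overlapped, and the groups did not overlap in the other 5, with deleted cells higher in 4 (30.5% of all genes tested) and lower in 1 (21.2%). Over all 13419 genes tested, 17.3% passed the same threshold, 8.58% higher and 8.74% lower. The median log2 fold change was 1.35 over the 7 genes and 0.10 over all genes tested. Every fold change is deleted over control from limma (moderated linear model, two-sided) at the brightest probe of a gene, with standard errors (SE), differences of levels are on the log2 scale, and p-values are Benjamini-Hochberg adjusted over all genes with a threshold of 0.05. Whether the cultures of a group derive from different embryos is not stated in the labels, so p-values measure only the spread between these samples, which may be technical. In bulk RNA, fewer cells of a type and less RNA per cell cannot be told apart.

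**Figure D1:**
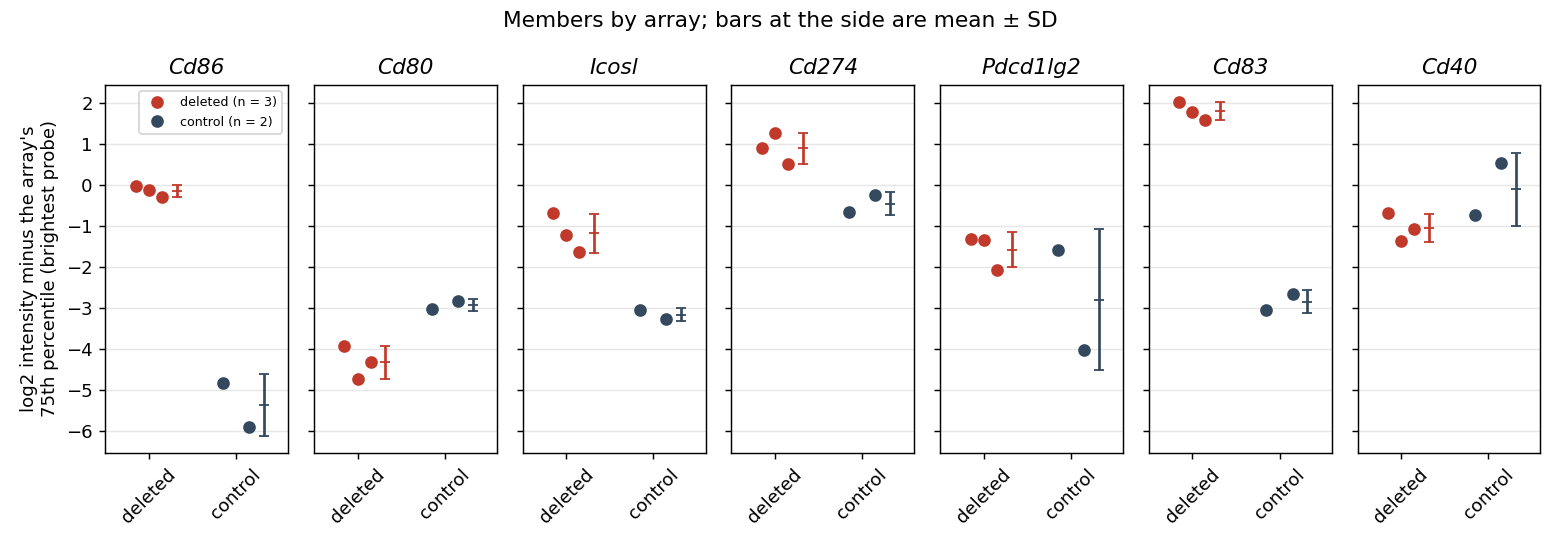
Level of each gene on each array, as log2 intensity minus the log2 75th percentile of the array, at the brightest probe, with deleted arrays (red, n = 3) left of control arrays (dark, n = 2) and mean ± SD at the side. The groups are apart in Cd86, Cd80, Icosl, Cd274 and Cd83 and overlap in Pdcd1lg2 and Cd40.

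Across the arrays the 75th percentile of intensity lay between 306 in deleted 5 and 430 in deleted 7, and levels are log2 intensities minus that percentile. Pearson's r between arrays over the 13419 genes was 0.979 to 0.982 within deleted, 0.979 between the controls and 0.926 to 0.959 across groups. Among the 3 Ebf1 probes, that for AK036716 had a log2 fold change of -3.02, that for NM_007897 one of -0.25 and that for AK042875 one of 0.44. The brightest, for NM_007897, read 1655, 1552 and 2070 in deleted 4, 5 and 7, against 2172 and 2374 in control 3 and 6. That for AK036716 read 21.3, 9.48 and 26.5, against 143 and 170, and alone passed in the fit over probes (limma adjusted p = 0.0037). Where the 3 probes lie relative to the removed part was not determined here. The first number of the sample titles is 93 in all deleted and 111 in both control samples, so any effect of what it numbers cannot be told apart from that of the genotype. The median log2 fold change of all genes was 0.10, but -0.04 without scaling between arrays, and the share of changed genes that were higher was 49.5%, but 38.6% without scaling.

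Cd86, a ligand of CD28 and CTLA-4, was near the bottom of the intensity range in control cells and well above it in deleted cells. The brighter probe read 386, 284 and 352 in deleted 4, 5 and 7, against 13.9 and 7.00 in control 3 and 6. All 3 deleted arrays were above both controls. Of the controls, control 3 lay above its array's 40th percentile, used here as the limit of detection, and control 6 did not. Levels were -0.13 ± 0.14 in deleted (SD, n = 3) and -5.37 ± 0.76 in control cells (SD, n = 2), a difference of 5.23 (SE 0.35, 95% interval 4.40 to 6.06, limma adjusted p = 0.00069). Since control 6 was below that limit, the size of the change is uncertain.

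The second Cd86 probe gave the same direction. It read 250, 172 and 199 in deleted 4, 5 and 7, against 3.89 and 4.84 in control 3 and 6. Both controls were below their 40th percentile, so this probe gives a limit: Cd86 was at least 23.4-fold higher in deleted cells (limma adjusted p = 0.00027 over 27969 probes, of which 12.8% passed, 5.94% higher and 6.89% lower). It passed the filter through the deleted arrays alone, which favours a difference, so its p-value adds no separate support. Of the 18 features tested here, 5, this probe among them, were higher and 1 lower in that fit. Adding 16 to every intensity before taking logs, which damps differences near the bottom of the range, brought the log2 fold change of the brighter probe to 3.88.

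Cd80, the other ligand of CD28 and CTLA-4, moved the opposite way at low intensity. Its brighter probe read 25.5, 11.5 and 21.6 in deleted 4, 5 and 7, against 48.5 and 58.8 in control 3 and 6. All 3 deleted arrays were below both controls, a separation found in either direction for 51.7% of genes tested. Levels were -4.33 ± 0.40 in deleted (SD, n = 3) and -2.93 ± 0.14 in control cells (SD, n = 2), a change of -1.40 on the log2 scale (SE 0.34, 95% interval -2.22 to -0.58, limma adjusted p = 0.038). The second probe, with 11.3, 6.37 and 15.7 in deleted 4, 5 and 7 and 20.3 and 29.4 in control 3 and 6, had a log2 fold change of -1.10 and did not pass (limma adjusted p = 0.12 over probes). The call did not hold without control 3 (limma adjusted p = 0.15), control 6 (0.14), deleted 5 (0.074) or deleted 7 (0.071), nor without scaling (0.063) or without the filter (0.070).

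RefSeq promoters (GRCm38.p6, 250 bases before to 50 after the start site) were matched by symbol for 4 of the 7 genes, and they show the start regions of 1 gene that fell, 2 that were higher and 1 that did not pass. Capitals mark matches, on either strand, to 5 motifs spelled below. The start used for Cd80 lies 1503 bases inside the gene, and its promoter reads 5′ to 3′ as follows.
Cd80, chr16:38458683-38458982, + strand: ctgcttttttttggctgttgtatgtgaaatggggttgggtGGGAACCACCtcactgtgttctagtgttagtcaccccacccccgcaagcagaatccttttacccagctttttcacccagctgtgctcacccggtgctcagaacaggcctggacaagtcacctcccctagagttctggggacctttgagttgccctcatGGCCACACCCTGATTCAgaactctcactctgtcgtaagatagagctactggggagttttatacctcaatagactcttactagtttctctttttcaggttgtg
In it a loose NF-kappaB pattern (GGG, any 5 bases, CC) matched at positions 41 to 50 and 199 to 208, and TGANTCA, an AP-1 pattern, at 209 to 215, so that the last 2 matches form 1 run of capitals.

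Icosl, the ligand of ICOS, was higher in deleted cells at the probe that was measurable. That probe read 244, 132 and 139 in deleted 4, 5 and 7, against 47.7 and 43.1 in control 3 and 6. The lowest deleted array was well above the higher control, and deleted 4 stood above the other two. Levels were -1.17 ± 0.48 in deleted (SD, n = 3) and -3.16 ± 0.16 in control cells (SD, n = 2), a difference of 1.99 (SE 0.32, 95% interval 1.24 to 2.75, limma adjusted p = 0.0096). The second Icosl probe was at or below the 40th percentile on every array and gave no fold. With the mean of both probes in place of the brighter one, the log2 fold change was 1.12 and did not pass (limma adjusted p = 0.053).

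The Icosl promoter had 68.0% G and C and 26 CG pairs, against medians of 52.7% and 7 over the 32851 promoters of the table.
Icosl, chr10:78069118-78069417, + strand: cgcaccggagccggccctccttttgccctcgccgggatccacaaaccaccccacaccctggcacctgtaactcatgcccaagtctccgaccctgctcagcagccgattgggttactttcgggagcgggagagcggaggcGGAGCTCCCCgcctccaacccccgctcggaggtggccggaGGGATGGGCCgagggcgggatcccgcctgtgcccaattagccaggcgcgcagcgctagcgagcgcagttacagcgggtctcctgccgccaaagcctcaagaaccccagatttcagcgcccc
The NF-kappaB pattern matched it at positions 140 to 149 and 180 to 189.

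Cd274, which encodes PD-L1, was measured well above the lower range in both groups and was higher in deleted cells. It read 731, 741 and 619 in deleted 4, 5 and 7, against 252 and 354 in control 3 and 6. The groups did not overlap. Levels were 0.90 ± 0.38 in deleted (SD, n = 3) and -0.45 ± 0.29 in control cells (SD, n = 2), a difference of 1.35 (SE 0.26, 95% interval 0.73 to 1.97, limma adjusted p = 0.018). Without control 3 it was 1.14 and did not pass (limma adjusted p = 0.11).

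Pdcd1lg2, which encodes PD-L2 and is the next annotated gene to Cd274 on chromosome 19, with 22823 bases and 0 other genes between them, gave no call. It read 156, 120 and 103 in deleted 4, 5 and 7, against 133 and 25.9 in control 3 and 6. Control 3 lay among the deleted arrays and control 6 far below them. The 2 controls differed 5.44-fold, a gap that 1.24% of genes tested matched or passed. Levels were -1.58 ± 0.43 in deleted (SD, n = 3) and -2.79 ± 1.73 in control cells (SD, n = 2), a difference of 1.21 (SE 0.68, 95% interval -0.41 to 2.84, limma adjusted p = 0.27). It was 2.44 without control 3 (limma adjusted p = 0.030) and -0.0067 without control 6 (0.99). Whether the pair of neighbours differed in response was not tested.

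The promoters of the neighbours are shown together because the genes lie side by side and share a receptor, PD-1. The start used for Cd274 lies 5331 bases inside the annotated gene.
Cd274, chr19:29367188-29367487, + strand: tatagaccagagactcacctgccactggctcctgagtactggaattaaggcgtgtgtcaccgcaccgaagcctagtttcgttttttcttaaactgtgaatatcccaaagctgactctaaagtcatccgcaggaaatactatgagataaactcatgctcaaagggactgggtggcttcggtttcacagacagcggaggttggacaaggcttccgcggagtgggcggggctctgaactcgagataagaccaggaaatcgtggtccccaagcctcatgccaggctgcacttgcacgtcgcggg
Pdcd1lg2, chr19:29410669-29410968, + strand: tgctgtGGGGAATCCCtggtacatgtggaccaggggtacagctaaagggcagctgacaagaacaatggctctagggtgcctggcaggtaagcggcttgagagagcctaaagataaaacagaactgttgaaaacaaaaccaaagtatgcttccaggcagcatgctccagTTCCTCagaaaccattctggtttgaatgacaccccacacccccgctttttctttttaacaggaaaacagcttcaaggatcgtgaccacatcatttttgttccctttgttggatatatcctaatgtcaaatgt
None of the 5 motifs matched that of Cd274. In that of Pdcd1lg2 the NF-kappaB pattern matched at positions 7 to 16 on both strands, and GAGGAA, a PU.1 core, matched at 169 to 174 on the minus strand. The NF-kappaB pattern is in 50.8% of all promoters of the table and in 3 of these 4, GAGGAA in 28.3% and in 1, and TGANTCA in 7.81% and in 1. An Ebf1 core (TCCC, any 2 bases, GGGA) is in 0.904% of all promoters and an interferon response element (GAAA, any 2 bases, GAAA) in 3.44%, and neither was found in these 4. A match is a description of letters in this window only.

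Cd83, which encodes the surface protein that opposes MARCH1, was far higher in deleted cells. Its probe read 1604, 1059 and 1304 in deleted 4, 5 and 7, against 47.9 and 66.7 in control 3 and 6. All deleted arrays were far above both controls, and every array was above its 40th percentile, so the fold is measured on both sides. Levels were 1.81 ± 0.22 in deleted (SD, n = 3) and -2.85 ± 0.28 in control cells (SD, n = 2), a difference of 4.66 (SE 0.21, 95% interval 4.15 to 5.17, limma adjusted p = 0.00022). With each array left out in turn the log2 fold change stayed between 4.46 and 4.86.

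Cd40 had 10 features on each array, all annotated to NR_027852, though the annotation does not say whether they repeat 1 probe. They show how far several readings of Cd40 in 1 RNA sample scatter. The median of the 10 was 242, 110 and 211 in deleted 4, 5 and 7, against 218 and 612 in control 3 and 6. Control 6 stood above every other array at all 10 features, and control 3 lay within the range of the deleted arrays at 9 of them, so that the groups did not overlap at 1 (49.0% of all probes tested did not). Within an array the SD over features was 0.04 to 0.10 on the log2 scale, whereas the feature means had an SD of 0.38 between the 3 deleted arrays and 1.01 between the 2 controls. The controls differed 2.68-fold in the feature means. The scatter between features holds no variation of labelling, hybridisation or culture, so it is no measure of how far separate samples vary.

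**Figure D2:**
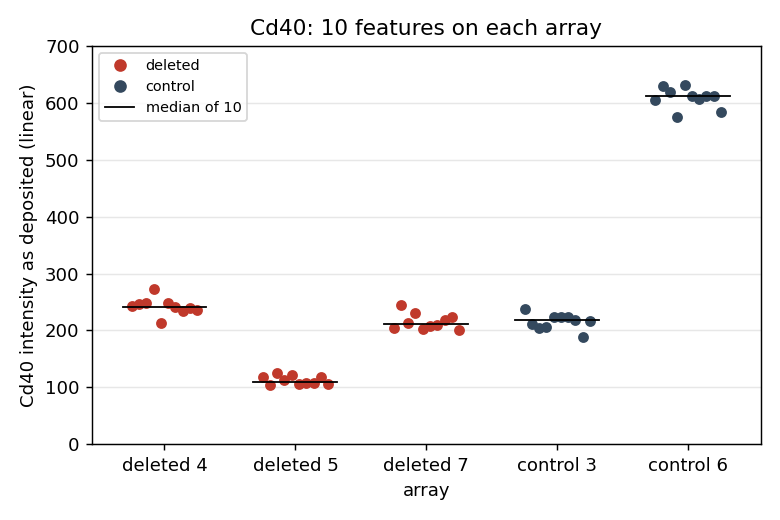
Deposited intensity (linear axis from 0) of the 10 Cd40 features on each array, deleted in red and control in dark, with the median of the 10 as a line. Medians are 242, 110 and 211 in deleted 4, 5 and 7 and 218 and 612 in control 3 and 6, with little scatter within an array.

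At its brightest feature Cd40 had levels of -1.04 ± 0.34 in deleted (SD, n = 3) and -0.10 ± 0.90 in control cells (SD, n = 2), a difference of -0.94 (SE 0.40, 95% interval -1.89 to 0.01, limma adjusted p = 0.15). The 10 features gave log2 fold changes between -0.97 and -0.71, of which 0 passed (limma adjusted p between 0.16 and 0.34 over probes, and 2 of the 10 had an unadjusted p under 0.05). It was -1.57 without control 3 (limma adjusted p = 0.052) and -0.31 without control 6 (0.58), so the size depends on which control it is set against.

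**Figure D3:**
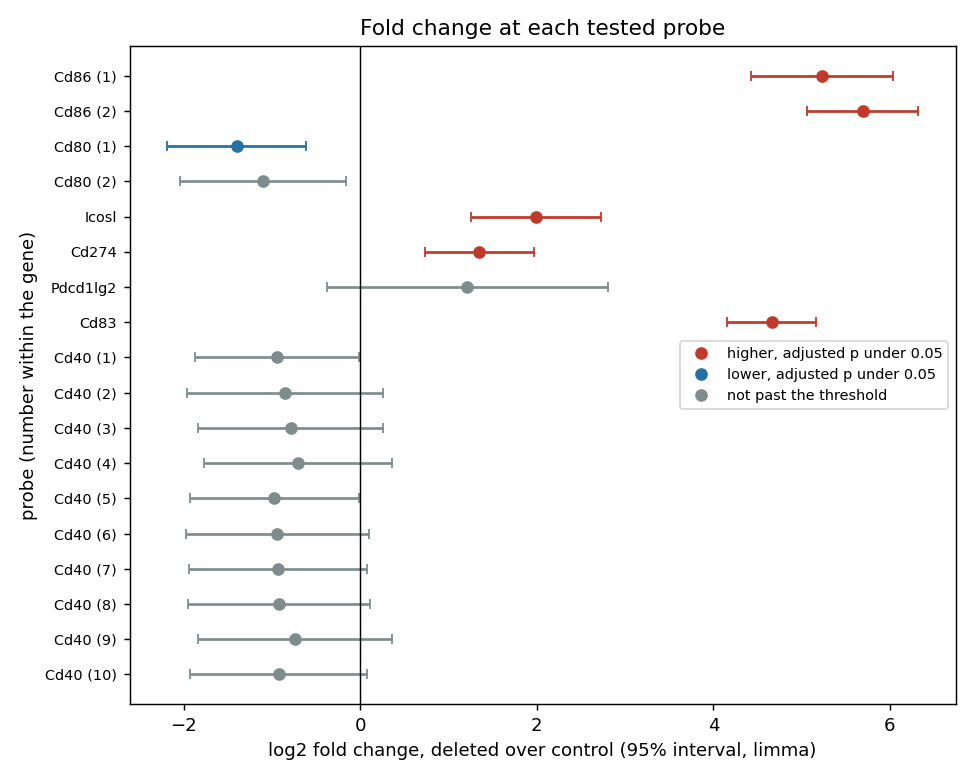
Log2 fold change, deleted over control, with its 95% interval from limma at each of the 18 probes tested, numbered within a gene from the brightest. The intervals of both Cd86 probes and those of Cd83, Icosl and Cd274 lie above 0, and those of both Cd80 probes and 2 of the 10 Cd40 features below it, of which the brighter Cd80 probe passed the adjusted threshold.

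The 2 controls differed more in some of these genes than in others. Their gap was 5.44-fold in Pdcd1lg2, 2.41-fold in the brightest Cd40 feature and 2.10-fold in Cd86, and between 1.15- and 1.33-fold in Cd80, Icosl, Cd274 and Cd83. A gap at least as large as that of Cd40 was found in 6.02% of all genes tested. Control 6 was the higher one in Cd40, Cd274, Cd83 and Cd80 and the lower one in Pdcd1lg2, Cd86 and Icosl. The deleted arrays spanned between 1.21-fold in Cd86 and 1.95-fold in Icosl.

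**Figure D4:**
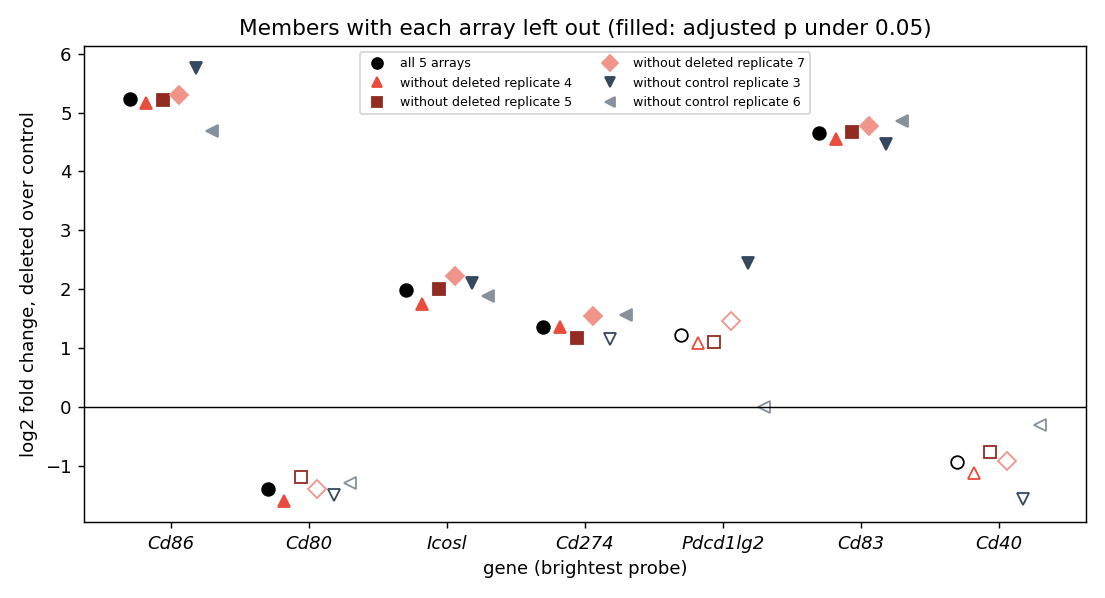
Log2 fold change, deleted over control, of each gene with all 5 arrays (black) and with each array left out, where filled symbols passed an adjusted p of 0.05. Cd86, Cd83 and Icosl stay filled throughout, Cd80 and Cd274 do not, and Pdcd1lg2 and Cd40 move most when a control is left out. Without control 3, Cd86 entered the test through the deleted arrays alone.

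Beyond these 7 genes, 6 lists of receptors, relatives and signalling partners were counted. Of their 33 tested genes 8 were higher and 4 lower, or 36.4%, against 17.3% of all genes tested, with a median log2 fold change of 0.17, against 0.10 over all genes tested. Of the 33, Pdcd1, Cd28 and Tnfsf14 passed the filter through the deleted arrays alone, which favours a difference. The counts moved with the arrays used. They were 2 higher and 2 lower without control 3, where 5.35% of all genes passed, and 5 and 2 without control 6, where 11.1% did. They were 4 and 2 without deleted 5 (9.71% of all genes), and 2 were lower without deleted 4 (10.7%).

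Of the 5 genes for T-cell partners of these proteins, which are receptors except the CD40 ligand gene Cd40lg, Pdcd1, Cd28 and Icos were tested, all at low intensity. Pdcd1 and Cd28 entered the test through the deleted arrays alone, so that their number says nothing about the group. Pdcd1, which encodes PD-1, read 32.3, 40.9 and 26.1 in deleted 4, 5 and 7, against 7.04 and 8.84 in control 3 and 6, at least 3.74-fold higher because both controls were below the 40th percentile (limma adjusted p = 0.019). Cd28 was likewise at least 1.39-fold higher (limma adjusted p = 0.035). Ctla4, above the 40th percentile in 1 control and no deleted array, and Cd40lg, above it in none, were not tested. Icos had a log2 fold change of -0.69. The Pdcd1 call was lost without control 3 (limma adjusted p = 0.10) or control 6 (0.056), and the Cd28 call whichever of the 5 arrays was left out (0.061 to 0.12).

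In the list of other B7 relatives and the BTLA axis 2 of 3 tested genes were higher and 0 lower. Among all genes tested 8.58% were higher and 8.74% lower. Btla, an inhibitory receptor of lymphocytes, read 2029, 1198 and 1605 in deleted 4, 5 and 7, against 169 and 144 in control 3 and 6. That is an 11.1-fold increase (log2 fold change 3.47, SE 0.21, limma adjusted p = 0.00043), which passed with each array left out. Vsir, which encodes the B7 relative VISTA, rose 1.86-fold (limma adjusted p = 0.012), a call lost without control 3 (0.088) and without scaling between arrays (0.061). Tnfrsf14, the ligand of BTLA, had a log2 fold change of -0.53 and did not pass.

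Genes of signalling below CD40 went both ways. Of 13 tested, 2 were higher, 2 lower and 9 did not pass, with a median log2 fold change of -0.17. Over all genes tested 8.58% were higher and 8.74% lower. Tnfaip3, which encodes the NF-kappaB inhibitor A20, read 862, 681 and 754 in deleted 4, 5 and 7, against 2310 and 2729 in control 3 and 6. It fell by 1.59 on the log2 scale (SE 0.17, limma adjusted p = 0.0027) and passed with each array left out. The adaptor gene Traf5 rose 2.60-fold (limma adjusted p = 0.018) and Map3k14, the kinase NIK of the alternative NF-kappaB pathway, 2.15-fold (0.016). Traf6, another adaptor, fell by 0.71 on the log2 scale (limma adjusted p = 0.032). Traf5 and Map3k14 did not pass without control 3 (0.089 and 0.10) or deleted 5 (0.066 and 0.053), and Traf6 did not whichever array was left out (0.053 to 0.13).

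Of 6 tested TNF family ligands 1 was lower and 0 higher, a share near the 17.3% of all genes. Tnfsf8, which encodes the CD30 ligand, read 186, 146 and 413 in deleted 4, 5 and 7, against 719 and 716 in control 3 and 6, and fell by 1.55 on the log2 scale (limma adjusted p = 0.025). Deleted 7 stood apart from the other deleted arrays, though below both controls. The call was lost without control 3 (limma adjusted p = 0.13), control 6 (0.079), deleted 4 (0.052) or deleted 5 (0.078).

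Of 6 tested genes for other surface partners of the T-cell contact, 1 was higher and 1 lower, against 8.58% and 8.74% of all genes. Slamf7, a receptor of the SLAM family, fell by 1.91 on the log2 scale (SE 0.26, limma adjusted p = 0.0061), and its second probe had a log2 fold change of -2.10. Icam2, an adhesion ligand of LFA-1, rose 1.66-fold (limma adjusted p = 0.049), a call lost without control 3 (0.26), control 6 (0.12), deleted 4 (0.11) or deleted 5 (0.082). The same Icam2 probe did not pass in the fit over probes (limma adjusted p = 0.057). Icam1 had a log2 fold change of 0.01 and Cd48 one of -0.06, and neither passed.

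Marchf1, the ubiquitin ligase named above, rose together with Cd86 and Cd83. It read 6049, 5489 and 6433 in deleted 4, 5 and 7, against 390 and 778 in control 3 and 6, an 11.9-fold increase (log2 fold change 3.57, SE 0.27, limma adjusted p = 0.0011) that passed with each array left out. Its second probe was at or below the 40th percentile on every array, and the mean of both probes gave a log2 fold change of 1.87. Marchf8, a related ligase, had a log2 fold change of 0.13 and did not pass (limma adjusted p = 0.76).

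**Figure D5:**
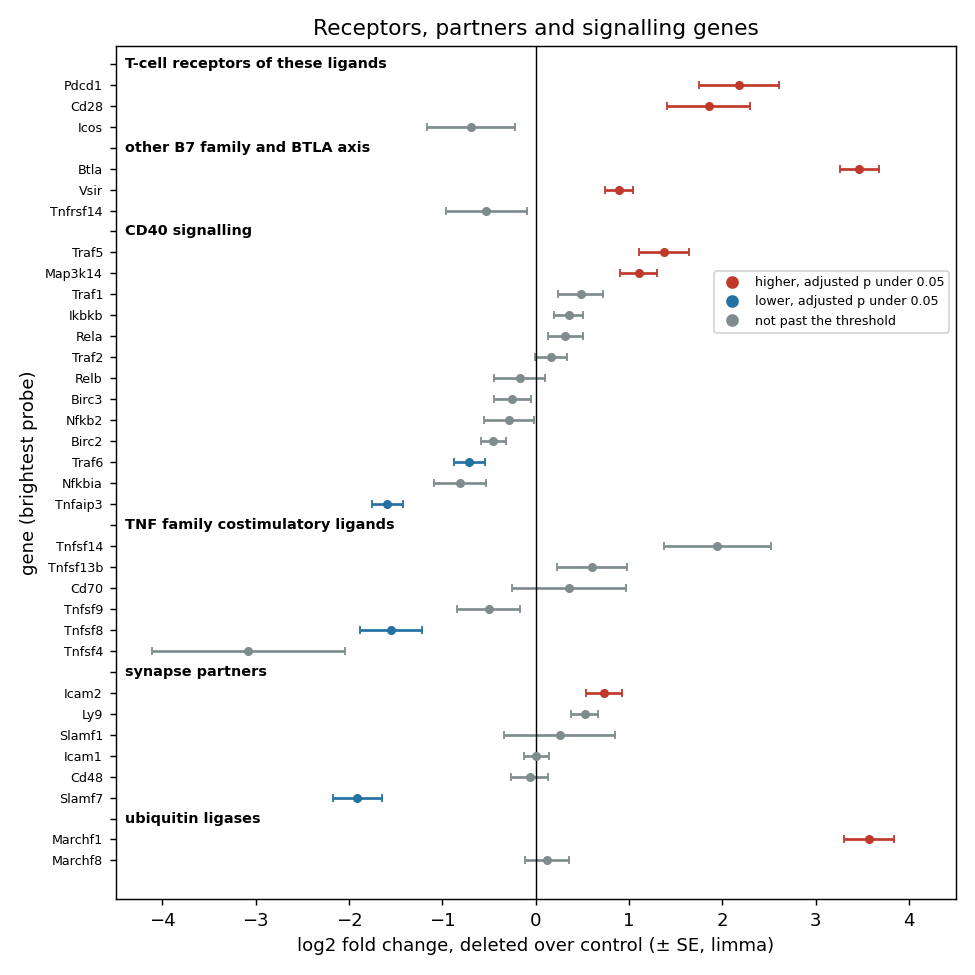
Log2 fold change, deleted over control, with its SE from limma for the 33 tested genes of 6 lists of receptors, relatives and partners. Of them 8 were higher (red), among which Marchf1 and Btla lie farthest to the right, and 4 lower (blue).

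The genes whose pattern over the 5 arrays lay nearest to each member were found among 13418 others, by the Euclidean distance between log2 levels centred on the gene's mean. For Cd83 these were Cd74, the MHC class II invariant chain, at 0.33 and Gpr183, an oxysterol receptor, at 0.51. For Cd86 they were Zfp612 at 0.45 and Ccl3, a chemokine gene, at 0.65. For Icosl they were Slc26a11 at 0.14 and Evc2 at 0.25, and for Cd274 Mapk11, a p38 kinase gene, at 0.16 and Sgms1, a sphingomyelin synthase gene, at 0.17. For Cd80 they were Kcnc1 at 0.28 and Mgat5 at 0.30, for Pdcd1lg2 Pla2g12b and Nt5el, both at 0.41, and for Cd40 Whrn at 0.32 and Tnfrsf10b, a TRAIL receptor gene, at 0.34. The points share 5 arrays in 2 groups, and the distances are a description without a test.

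Several of these ligands are also made by dendritic cells, macrophages and mature B cells, so marker lists were read beside them. Summed levels below are intensities relative to each array's 75th percentile. The dendritic cell list summed to 24.9 to 30.7 in deleted and 8.94 to 13.6 in control arrays, of which Ccr7 made up 92.1% to 97.9%. Without Ccr7 it summed to 0.647 to 0.721 in deleted and 0.709 to 0.731 in control arrays. Of its 6 tested genes Ccr7 was higher and Flt3 lower, and Clec9a, Clec10a and Siglech were at or below the 40th percentile on every array. The macrophage list summed to 2.69 to 3.10 in deleted and 4.56 to 14.9 in control arrays. Lyz2 made up 65.6% to 96.3% of the list and did not pass at its brighter probe (limma adjusted p = 0.055). Its second probe was lower in the fit over probes (log2 fold change -2.08, limma adjusted p = 0.048). Without Lyz2 the list summed to 0.536 to 1.07 in deleted and 0.556 to 0.618 in control arrays. Of the 6 tested genes of the list Fcgr1 was higher, at least 8.62-fold, and Itgam lower (limma adjusted p = 0.049). A second Fcgr1 probe read 4.74, 14.2 and 5.93 in deleted 4, 5 and 7, against 3.38 and 2.15 in control 3 and 6. It was above the 40th percentile in deleted 5 only and was not tested. Neither Itgam probe passed in the fit over probes (limma adjusted p = 0.053 and 0.064). Mertk was at or below the 40th percentile on every array. The mature B-cell list summed to 312 to 449 in deleted and 300 to 376 in control arrays, with Ms4a1, Fcer2a, Fcrl1 and Cd22 higher of 6 tested. Cd22 lay near the threshold (limma adjusted p = 0.049), and neither of its probes passed in the fit over probes (0.059 and 0.12). Cd79b, which is also on the pro-B list, made up 86.4% to 97.3% of the mature B-cell list. Without Cd79b that list summed to 39.3 to 47.5 in deleted and 8.16 to 11.9 in control arrays. The pro-B list summed to 380 to 557 in deleted and 1145 to 1287 in control arrays, with 7 of 10 tested genes lower and 0 higher, and without Cd79b to 88.8 to 222 in deleted and 781 to 996 in control arrays. Stromal markers summed to 1.17 to 1.55 in deleted and 0.783 to 0.832 in control arrays, with Sparc higher of 5 tested. Lum and the brighter Dcn probe were at or below the 40th percentile on every array, and a second Dcn probe was above it in control 3 only. The T-cell list summed to 0.280 to 0.311 in deleted and 0.164 to 0.200 in control arrays, with Cd3g at least 3.26-fold higher of 4 tested. The NK-cell list summed to 0.210 to 0.262 in deleted and 0.937 to 1.56 in control arrays, with Klrb1c and Nkg7 lower of 3 tested. Klrb1c made up 29.7% to 76.9% of that list, and Nkg7 read 275 in control 3 and 59.1 in control 6. Prf1, the other tested gene, had a log2 fold change of 0.82 and did not pass. Ncr1, Gzmb and Eomes were at or below the 40th percentile on every array. The 1 tested granulocyte gene did not pass. Of the 40 marker genes tested 8 were higher and 11 lower, or 47.5%, against 17.3% of all genes, and Cd3d, Cd3g and Fcgr1 of them passed the filter through the deleted arrays alone. The counts were 5 and 4 without control 3, where 5.35% of all genes passed, and the lower ones 6 without control 6, 5 without deleted 5 and 7 without deleted 7. The part of any of these markers in the results was not tested.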

How the data were processed

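Each array came as 1 linear intensity per feature as the authors deposited it. The submitters' processing notes name Agilent Feature Extraction, without a version, background method or spot flags that could be used here. Groups were read from the genotypes in the sample titles. The platform annotation gave 1 symbol for 33653 of 45018 features, several for 56, which were left unnamed, and none for 11309. By gene ID, 33517 of the named features matched RefSeq (GRCm38.p6), with 0 symbols changed.

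Levels are log2 intensities minus the array's 75th percentile. The probe brightest on average over all 5 arrays stood for its gene. To be tested, a gene or probe had to lie above the 40th percentile of its array on 2 or more arrays, as did 13419 genes and 27969 probes. That percentile replaced detection flags: where no array of a group passed it, only an "at least" bound is printed. limma 3.58.1 (R 4.3.3), with lmFit and trended eBayes, compared the groups and was run on simulated data. Those were drawn from its own fitted variance model, without array effects or a floor of intensity. They therefore do not show how the fit performs on these arrays. The number of arrays limits the precision.

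The 7 genes, the lists and the motifs were chosen with earlier results of these data known. All 7 genes are named, with the 2 genes nearest in pattern to each, and from each list up to 4 genes past the threshold by size of change. Other list genes were named after their values were seen. Scaling, offset, filter, variance model, array weights, probe summary and each array left out were varied.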

Additional observations from a re-analysis of the deposited data

How the results depend on the processing

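Cd86 and Cd83 passed in the same direction under all 15 alternatives. Icosl passed in 14 and Cd274 in 14. Cd80 passed in 8 of the 14 in which it was tested, since the filter at the 60th percentile left it out. With that filter both Cd86 controls were below the limit. Without control 3, the remaining control was below the 40th percentile in Cd86. In both cases Cd86 entered the test through the deleted arrays alone, which favours a difference, so these passes add no separate support. The number of member genes higher stayed at 3 to 4, though without control 3 the 4 held Pdcd1lg2 and not Cd274. With each array left out the log2 fold change was between -1.60 and -1.19 for Cd80, 1.14 and 1.56 for Cd274, -0.0067 and 2.44 for Pdcd1lg2, and -1.57 and -0.31 for Cd40, and 0 to 1 member genes were lower. Cd80 did not pass without scaling (log2 fold change -1.53) or without a filter (-1.40), and with either, or with the filter at the 60th percentile, 0 were lower. Icosl gave 1.12 as the mean of its probes. Pdcd1lg2 had -0.0067 without control 6, in the probe fit too, and 1 Cd40 feature ranged from -1.55 to 0.073 with 1 array left out, reaching 0.073 without control 6. The 2324 changed genes became 703 to 2009 and the 3588 changed probes 994 to 2898 with 1 array left out, and 2382 probes passed without scaling. The lists of receptors and partners, whose alternatives were chosen after seeing the data, had 2 to 7 genes higher and 2 to 3 lower with 1 array left out, and 2 lower without the variance trend. The cause was not tested. No paired analysis was possible because the groups share no sample number. Detection flags were not used here, so values near the bottom of the range, as in Cd80 and the control values of Cd86, are the least certain.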

Other observations

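Cd28, the receptor of CD86 and CD80, was represented by 11 features, of which 7 were tested. Their log2 fold changes lay between 0.54 and 2.16, and 2 of the 7 passed in the fit over probes. Only 1 feature exceeded the 40th percentile in any control array, and 3 did so in all deleted arrays. Since 6 of the 7 tested features passed the filter through the deleted arrays alone, their common direction was favoured by the filter.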
